A study of Sus scrofa with 20 samples.

Results

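The forkhead transcription factors of the pig were examined in backfat, the subcutaneous fat over the back, and in liver. A gene was taken as a member when its pig symbol was FOX followed by a letter from A to S and a number, which gave 41 of the 31907 genes in the count table, in 19 subfamilies named by their letter. The series compared both tissues of Nanchukmacdon pigs by RNA-seq and by whole genome bisulfite sequencing, to relate methylation to gene expression, and the RNA-seq part used here held 5 backfat and 5 liver libraries. Both groups were labelled WT, 22 months of age and of normal disease state, none had a treatment, and the methods describe the animals as boars and give another average age. The columns of the table carried the boar numbers 65, 67, 69, 71 and 72 in both tissues. Libraries are named below by tissue and boar number, and values are given in that order.

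Forkhead proteins share a DNA-binding domain of the winged-helix type, in which a single recognition helix reads the DNA. FOXA proteins are pioneer factors that open chromatin in liver, FOXO proteins carry the insulin signal to genes of fasting metabolism and are kept out of the nucleus when AKT phosphorylates them, and FOXC proteins act in mesenchyme and vessels. Other members serve motile cilia (FOXJ1), cell division (FOXM1), regulatory T cells (FOXP3) or repression by dimers (FOXP1, FOXP2 and FOXP4).

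The 27 bases that code for 9 residues of the recognition helix were found in all 41 members in the Sscrofa11.1 genome with the RefSeq gene models. They are shown for 8 genes of different subfamilies on which the comparison turned or that relate to them, with capitals where a base differs from FOXC1. Where an intron divides the stretch, only the gene is given.
FOXC1 (chr7:837534-837560, plus strand): tggcagaacagcatccgccacaacctc
FOXC2 (chr6:2553996-2554022, minus strand): tggcagaacagcatccgccacaacctc
FOXS1 (chr17:35524443-35524469, minus strand): tggcagaacagcatccgccacaacctT
FOXJ1 (divided by an intron): tggcagaaTTCcatccgccacaacctG
FOXO4 (divided by an intron): tggAagaacTCGatccgccacaacctG
FOXO1 (divided by an intron): tggAagaaTTCAatTcgTcaTaaTctG
FOXP4 (divided by an intron): tggAagaacGCGGtGcgAcacaacctc
FOXN3 (chr7:111274903-111274929, minus strand): tggAaAaacTCAGtGAgAcaTaaTTtG
FOXC1 and FOXC2 were identical over the 27 bases, and FOXS1 differed from them at 1 base. Across the family the number of bases that differed from FOXC1 had a median of 5.0 and reached 13 in FOXN3. In 15 other members, among them FOXC2, FOXJ1 and FOXS1, the coded residues were those of FOXC1. The differences changed 1 residue in 12 members, among them the 4 FOXO genes, 2 residues in 9 members, among them FOXN3, and 3 residues in 4 members, among them FOXP4. The 41 genes held 32 distinct stretches of DNA and 11 distinct stretches of residues.

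Of the 41 genes, 7 had 0 counts in every library: FOXB2, FOXE1, FOXE3, FOXI2, FOXI3, FOXN1 and FOXR1. A further 10 had counts too low for the filter, so 24 genes were tested. Counts were compared by edgeR's quasi-likelihood test, log2 fold changes are backfat over liver, and a gene was called a DEG at a false discovery rate (FDR, the Benjamini-Hochberg adjusted p over 16275 genes) up to 0.05 where its log2 fold change was also 2 or more in size. Among the 24 tested genes 2 were DEGs with more in backfat, which is 8.33% where all tested genes gave 11.1%, and 6 were DEGs with more in liver, which is 25% where all tested genes gave 11.2%. By FDR alone 14 genes passed, 58.3% beside 55.0% of all tested genes. The median log2 fold change of the 24 genes was 0.15, and that of all tested genes was 0.00014. The libraries of the tissues did not overlap for 4 genes higher in backfat (16.7%) and 7 higher in liver (29.2%), where all tested genes gave 22.9% and 19.7%. With the library size alone as scaling, which moved all genes toward backfat, the DEGs were 2 in backfat and 3 in liver.

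**Figure D1:**
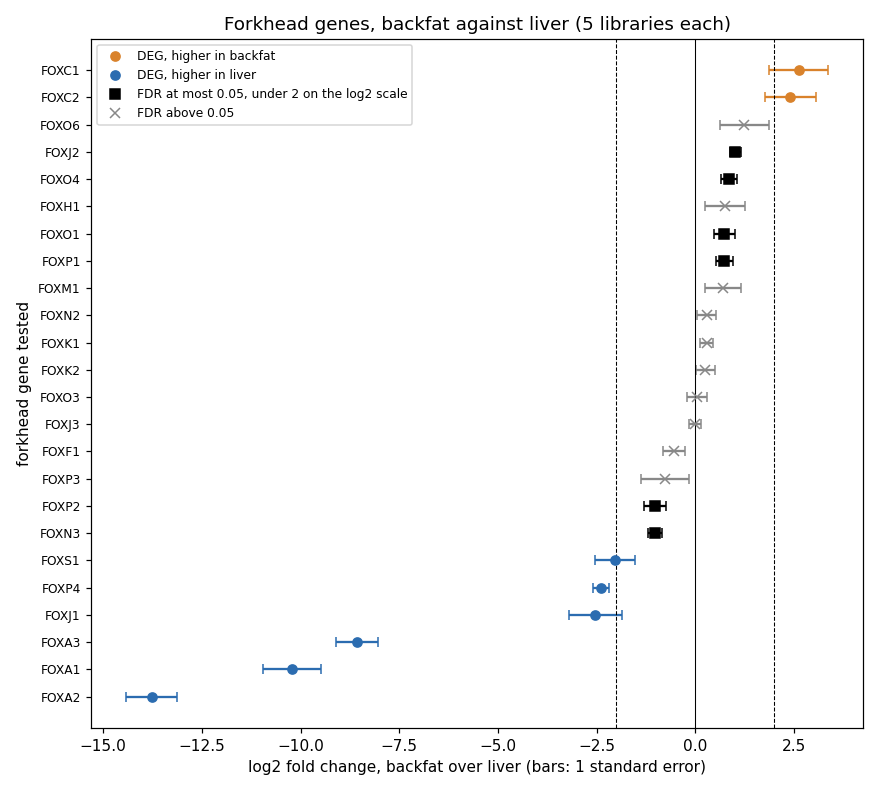
Log2 fold change of the 24 tested forkhead genes, backfat over liver, with bars of 1 standard error and dashed lines at the threshold of 2. FOXC1 and FOXC2 lie beyond the line on the backfat side and 6 genes lie beyond it on the liver side, with the 3 FOXA genes far apart from the rest; the FOXA2 value rests on 0 counts in backfat and depends on the fit's prior count.

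The libraries held between 43820042 and 61772737 counts. The labelled tissues carried their defining transcripts: 9 adipocyte markers summed to 11694 to 14798 CPM (counts per 1e6, normalized by TMM) in backfat and 201 to 1414 in liver, and 11 hepatocyte markers summed to 40605 to 144798 CPM in liver and 171 to 627 in backfat. In 2 libraries these values stood apart. Backfat 69 gave the hepatocyte sum of 627 CPM, where the other backfat libraries reached at most 216. Liver 67 gave the hepatocyte sum of 40605 CPM, a skeletal muscle marker sum of 182 CPM where the other liver libraries reached at most 1.62, and 44.5% of its counts in mitochondrial genes, where the other liver libraries had 6.38% to 20.2%.

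The FOXA genes separated the tissues most widely. FOXA1 (ENSSSCG00000037634, chr7:62471233-62479638, plus strand) had 62.0, 16.1, 59.1, 28.9 and 32.5 CPM in the liver libraries and 0, 0.0153, 0.135, 0.0180 and 0 CPM in the backfat libraries. FOXA2 (ENSSSCG00000007114, chr17:29997397-30001704, minus strand) had 29.0, 16.6, 43.3, 30.4 and 48.7 CPM in liver and 0 counts in all 5 backfat libraries. FOXA3 (ENSSSCG00000003092, chr6:52181095-52188777, plus strand) had 81.1, 36.8, 123, 51.6 and 51.8 CPM in liver and 0.282, 0.259, 0.202, 0.0360 and 0.0858 CPM in backfat. Every liver library was above every backfat library for each of the 3 genes, and liver 67 was the lowest liver library for each. The log2 fold change was -10.21 (SE 0.74, FDR 2.2e-07) for FOXA1 and -8.56 (SE 0.53, FDR 6.6e-08) for FOXA3 in edgeR's quasi-likelihood test. For FOXA2 only a bound can be given: with 3 counts over the 5 libraries as the most that 0 allows, it was at least 3723-fold higher in liver (FDR 3.3e-07, edgeR), a bound that covers counting error only. In the backfat libraries FOXA1 reached its highest level in backfat 69, the library with the highest hepatocyte marker sum, and leaving it out gave a log2 fold change of -11.96. The part of the hepatocyte transcripts of that library in its FOXA1 value was not tested. In bulk tissue, fewer cells of a type and less RNA per cell cannot be told apart.

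Per length, FOXA3 was the leading FOXA transcript in liver. In RPKM, counts per kilobase of exon and per 1e6 counts, it made up a median of 65.6% of the summed FOXA level over the liver libraries (52.2% to 70.1%), FOXA2 22.7% (17.5% to 36.7%) and FOXA1 11.4% (9.99% to 16.9%). The ranges of the 3 genes did not overlap. FOXA2 took its highest share in liver 72.

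FOXA proteins work with a circuit of liver factors and open the genes of secreted liver proteins. In a list of 21 such partners and targets with a test, 20 were DEGs higher in liver and 0 were DEGs higher in backfat (edgeR; DESeq2 also gave 20 and 0, and 1 gene was higher in backfat at an unadjusted p under 0.05), where all tested genes gave 11.2% and 11.1%. The list was made of genes of liver and chosen with earlier results of these data known, and TTR is also a hepatocyte marker. Its share of DEGs describes the 2 tissues and is no test of FOXA. The median log2 fold change of the list was -10.55, or -9.52 with the genes without backfat counts set at their bound. The largest changes were those of TAT, an enzyme of tyrosine breakdown (-13.41, SE 1.02, FDR 3.2e-07), and NR1H4, the bile acid receptor (-13.15, SE 0.45, FDR 1.3e-09). TTR, the thyroid hormone carrier transthyretin, had 6038 ± 3598 CPM in liver (SD, n = 5) and 1.33 ± 2.67 in backfat. HNF4A, a central hepatocyte factor, changed by -9.52 (SE 0.57) and GATA4 by -7.45 (SE 1.12). Backfat 69 held most of the backfat signal of several of them, and without it the values were -15.47 for TTR, -11.28 for GATA4, -16.59 for TAT and -14.96 for NR1H4. CEBPA, which hepatocytes and adipocytes both use, was the exception with 1.36 (SE 0.44, FDR 0.020), higher in backfat and under the fold threshold.

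FOXC1 and FOXC2, the factors of mesenchyme and of blood and lymph vessels, were the DEGs higher in backfat, both at low levels. FOXC1 (ENSSSCG00000039756, chr7:837088-840593, plus strand) had 1.32, 0.885, 2.12, 0.955 and 0.806 CPM in backfat and 0, 0.135, 0.0637, 0.663 and 0.163 CPM in liver. The tissues did not overlap, and liver 71 came closest to backfat. The log2 fold change was 2.61 (SE 0.76, FDR 0.011, edgeR), which is 6.10-fold, and without liver 71 it was 3.71. FOXC2 (ENSSSCG00000029296, chr6:2552141-2555041, minus strand) had 0.226, 0.259, 1.08, 0.252 and 0.446 CPM in backfat and 0.0249, 0.108, 0.0637, 0.0316 and 0.190 CPM in liver. Again the tissues did not overlap, and backfat 69 stood above the other backfat libraries. Its log2 fold change was 2.40 (SE 0.65, FDR 0.0072, edgeR), but it was 1.80, under the fold threshold, without backfat 69. The counts behind FOXC2 were 14 to 64 per library in backfat and 1 to 7 in liver.

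Marker sums of stromal and vascular cells were also higher in backfat than in liver. The 10 stromal fibroblast markers summed to 46524 to 84893 CPM in backfat and 973 to 1485 in liver, with 8 of 10 being DEGs higher in backfat and 1 in liver, where all tested genes gave 11.1% and 11.2%. The 9 endothelial markers summed to 1082 to 1733 CPM in backfat and 220 to 311 in liver, with 6 of 9 being DEGs higher in backfat. Within backfat, library 69 was highest for FOXC1 and FOXC2. It had the lowest stromal sum (46524 CPM) and the highest endothelial sum (1733 CPM). No marker of either list was at 0 in all libraries of a tissue. Their part in the FOXC values was not tested.

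FOXC1 and FOXC2 lie in clusters of forkhead genes. FOXL1, FOXC2 and FOXF1 lay within 57.4 kb on chromosome 6, and FOXQ1, FOXF2 and FOXC1 within 176.2 kb on chromosome 7. Cluster members did not share one pattern. FOXF1, a factor of gut and vessel mesenchyme and of hepatic stellate cells, was expressed in both tissues, at 2.08, 3.02, 3.35, 1.64 and 2.45 CPM in backfat and 2.72, 4.02, 3.06, 3.51 and 4.99 CPM in liver. The tissues overlapped, and its log2 fold change of -0.54 (SE 0.28) did not pass (FDR 0.12, edgeR). FOXF2 had 6 counts in backfat and 0 in liver over all libraries, FOXQ1 had 2 and 0, and FOXL1 had 43 and 35, so none of them was tested. The gene MTHFSD overlaps both FOXC2 and FOXF1 in the RefSeq annotation. The libraries were counted without strand, and reads that matched several genes were not counted. Where counted exons of overlapping genes share bases, such reads are therefore missing from the counts.

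FOXS1, known from pericytes and the sensory nervous system, was higher in liver, but the size of its change rested on single libraries. It (ENSSSCG00000033613, chr17:35523408-35537618, minus strand) had 40.0, 37.5, 36.3, 25.4 and 31.5 CPM in backfat and 45.6, 343, 78.5, 48.7 and 188 CPM in liver. Every liver library was above every backfat library, with liver 67 and liver 72 far above the other 3. The log2 fold change was -2.04 (SE 0.51, FDR 0.0044, edgeR). It was -1.44 without liver 67, -1.95 without liver 72 or without backfat 71, and -1.59 with the boar as a block (FDR 0.013), all under the fold threshold. Liver 67 is the library with the muscle transcripts and the high mitochondrial share, and their part in its FOXS1 value was not tested. The 10 markers of smooth muscle and pericytes summed to 216 to 508 CPM in liver, highest in liver 67, and 955 to 1320 CPM in backfat. The RefSeq model of FOXS1 has 7 coding exons with the helix stretch in 1 of them, and the table gives 1 count for the whole gene, so the forkhead-coding exon was not measured alone.

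**Figure D2:**
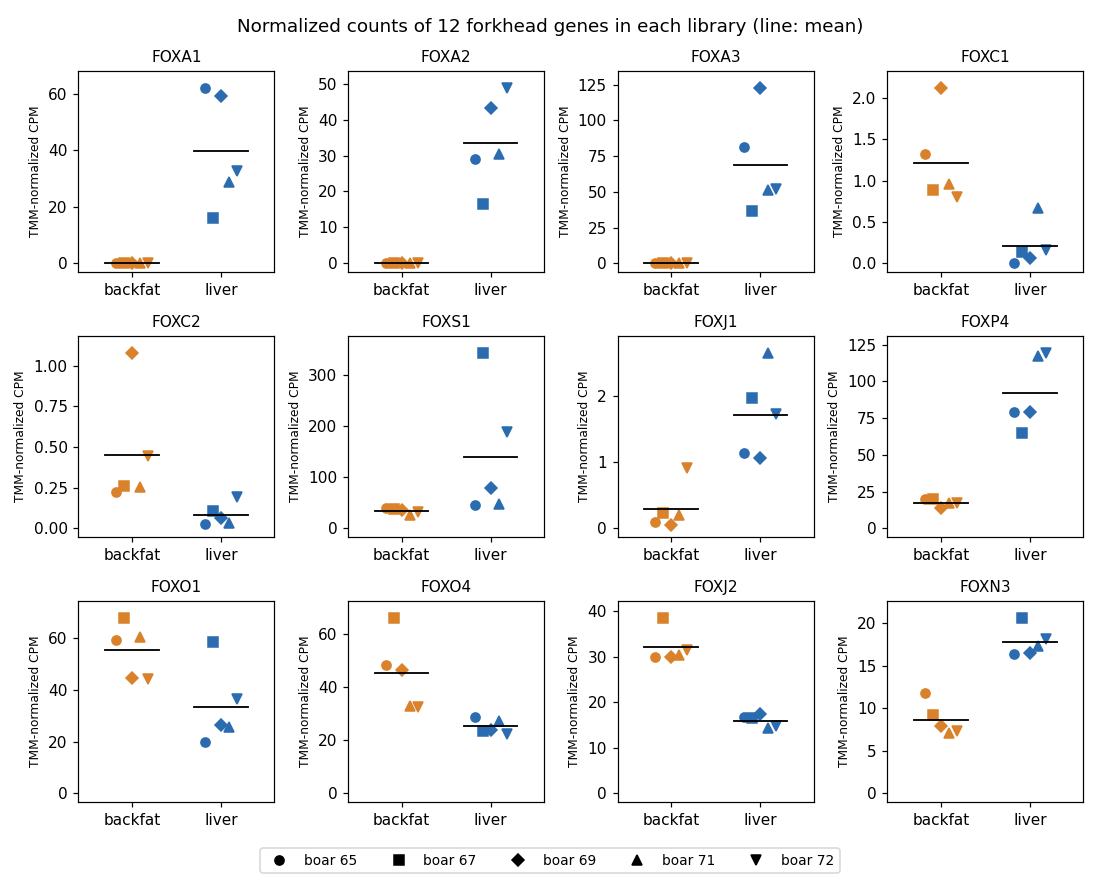
TMM-normalized CPM of 12 forkhead genes in each library, with a symbol for each boar, a line at the mean of each tissue and a separate scale for each gene. The FOXA genes are near 0 in all backfat libraries, liver 67 and liver 72 stand apart for FOXS1, backfat 69 for FOXC2 and liver 71 for FOXC1, and FOXO1 overlaps between the tissues through liver 67.

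No FOXO gene passed the fold threshold, and FOXO1 and FOXO4 were higher in backfat by FDR. FOXO1 (ENSSSCG00000009370, chr11:15317222-15410059, minus strand) had 59.3, 67.5, 44.7, 60.4 and 44.2 CPM in backfat and 19.8, 58.4, 26.2, 25.5 and 36.6 CPM in liver. The tissues overlapped only through liver 67. The log2 fold change was 0.73 (SE 0.27, FDR 0.036, edgeR), under the fold threshold, and the FDR was above 0.05 in 7 of 10 fits without a library, up to 0.097 without liver 71. Without liver 67 the log2 fold change was 1.00 (FDR 0.0014). FOXO4 (ENSSSCG00000012399, chrX:57132549-57140377, plus strand) had 48.0, 65.7, 46.4, 32.8 and 32.6 CPM in backfat and 28.8, 23.6, 24, 27 and 22.3 CPM in liver. It did not overlap between tissues and rose in backfat by 0.84 (SE 0.20, FDR 0.0033, edgeR), with an FDR of at most 0.014 in the fits without a library. The gene overlaps another gene in the annotation. FOXO3 did not pass, with means of 65.6 ± 29.2 CPM in backfat and 63.9 ± 4.62 in liver (SD, n = 5) and a log2 fold change of 0.04 (SE 0.25, FDR 0.91). FOXO6 was low, at 0.248 to 1.28 CPM in backfat and 0.0748 to 0.621 in liver, with a log2 fold change of 1.23 (SE 0.62) that did not pass (FDR 0.11) except without liver 67, where it was 1.64 (FDR 0.045).

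Within the FOXO group the make-up per length was similar in range. FOXO4 made up a median of 37.2% of the FOXO RPKM in backfat (30.1% to 46.1%) and 31.7% in liver (24% to 35.9%), FOXO1 33.0% and 24%, and FOXO3 29.9% and 44.2%. FOXO3 reached 34.5% to 47.0% in liver and 22.1% to 36.2% in backfat, so the ranges overlapped for each of the 3 genes. FOXO6 stayed at or below 1.16% in every library.

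**Figure D3:**
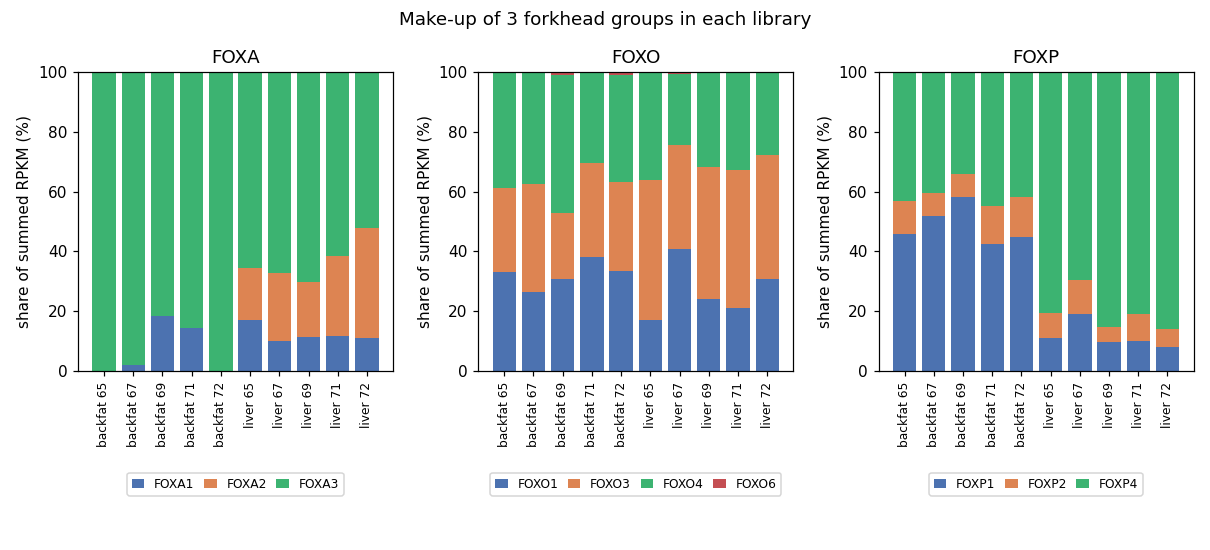
Share of the summed RPKM of the FOXA, FOXO and FOXP genes taken by each gene in each library, in percent; FOXP3 is left out of the FOXP panel. FOXP4 takes 69.6% to 85.8% of the FOXP level in liver and 34.2% to 44.8% in backfat, and the FOXA panel of the backfat libraries rests on very few counts.

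Genes known as direct FOXO targets moved in both directions. Of 28 tested, 6 were DEGs toward backfat and 6 toward liver, where all tested genes gave 11.1% and 11.2%, and 12 and 10 passed by FDR alone, where all tested genes gave 28.0% and 27.0%. The median log2 fold change of the list was 0.67. Higher in backfat were ADIPOQ, the adipocyte hormone adiponectin (16.52, SE 0.77, FDR 9.6e-09), with 3608 ± 1100 CPM in backfat and 0.0344 ± 0.0316 in liver, and PNPLA2, the lipase that starts triglyceride breakdown (3.66, SE 0.25). The others were TRIM63 (3.04), TXNIP (2.73), SESN1 (2.16) and PDK4 (2.12). Among the 6 DEGs higher in liver, G6PC1, the last step of glucose release, changed by -12.87 (SE 1.06, FDR 6.2e-07), or by -14.79 without backfat 69, and IGFBP1, a secreted binder of insulin-like growth factors, had 0 counts in backfat and was at least 23080-fold higher in liver. IGFBP1 stood at 243, 147, 6.54, 328 and 404 CPM in the liver libraries, and its bound covers counting error only. The remaining liver DEGs were APOC3 (-12.28), MTTP (-10.57), PPARGC1A (-5.47) and PCK1 (-2.03). PCK1, the first committed enzyme of gluconeogenesis, overlapped between tissues, at 173 ± 97.2 CPM in backfat and 710 ± 393 in liver, and fell under the fold threshold without backfat 71 (-1.86), backfat 72 (-1.80), liver 71 (-1.93) or liver 72 (-1.82). PDK4, which slows glucose oxidation, rested on backfat 67 with 2036 CPM, where the next library had 613, and its log2 fold change was 0.92 (FDR 0.22) without it and 1.29 (FDR 0.11) with the boar as a block. Its FDR was also above 0.05 without backfat 65, liver 65, liver 67, liver 69, liver 71 or liver 72, with log2 fold changes of 1.87 to 2.27.

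The genes that control FOXO proteins also moved in both directions, mostly by less than the fold threshold. Of 28 tested regulators, 2 were DEGs toward backfat and 0 toward liver (edgeR; DESeq2 also gave 2 and 0, and 7 were higher in liver at an unadjusted p under 0.05), where all tested genes gave 11.1% and 11.2%. By FDR alone 12 were higher in backfat and 5 in liver, where all tested genes gave 28.0% and 27.0%, and the median log2 fold change was 0.37. SGK2, a kinase of the AKT type, had 302 ± 118 CPM in backfat and 46.4 ± 15 in liver (SD, n = 5) and a log2 fold change of 2.70 (SE 0.33, FDR 2.2e-05, edgeR). YWHAZ, a 14-3-3 protein that binds phosphorylated FOXO, changed by 2.03 (SE 0.18, FDR 1.3e-06), and stood just under the fold threshold without backfat 69 (1.99), liver 65 (1.99) or liver 71 (1.97). AKT2, a kinase that phosphorylates FOXO proteins, rose in backfat by 1.48 (SE 0.19, FDR 2.6e-05). INSR, the insulin receptor, went the other way (-1.50, SE 0.39, FDR 0.0056). It stood at 79.8 CPM in liver 67, where the other liver libraries reached at most 32.9. Its log2 fold change was -1.70 to -0.95 in the fits without a library, with FDR up to 0.016 (edgeR). With the library size alone it was -0.72 (FDR 0.096). The insulin receptor substrates divided, with IRS1 higher in liver (-0.98, SE 0.21) and IRS2 higher in backfat (0.80, SE 0.25, FDR 0.017). SGK1 was at 59.6 ± 15.9 CPM in backfat and 101.1 ± 45.2 in liver and did not pass (-0.76, FDR 0.056), though it did without backfat 72 (-0.90), liver 71 (-0.97) or liver 72 (-0.93).

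Among the FOXP genes the change of FOXP4 was the most even across libraries. FOXP4 (ENSSSCG00000001619, chr7:36760643-36793620, plus strand) had 20.1, 19.6, 14, 17.2 and 17.0 CPM in backfat and 78.9, 64.7, 78.9, 117 and 119 CPM in liver. The lowest liver library was above the highest backfat library by a wide margin. The log2 fold change was -2.38 (SE 0.21, FDR 9.5e-07, edgeR) and stayed between -2.52 and -2.31 in the fits without a library. FOXP1 moved the other way by a smaller amount. It had 25.7, 30.2, 28.7, 19.6 and 22.0 CPM in backfat and 13, 21.4, 10.7, 17.8 and 13.3 CPM in liver. The tissues overlapped through liver 67 alone, and its log2 fold change was 0.73 (SE 0.21, FDR 0.011). FOXP2 had 4.85, 3.52, 2.91, 4.72 and 5.11 CPM in backfat and 7.98, 9.96, 4.44, 12.3 and 8.19 CPM in liver, with a log2 fold change of -1.02 (SE 0.28, FDR 0.0081). Liver 69 lay within the backfat range. FOXP3, the factor of regulatory T cells, had 0.0763 to 0.404 CPM in backfat and 0.0948 to 0.675 in liver and did not pass (-0.77, SE 0.60, FDR 0.29). Its gene overlaps CCDC22, and the 10 markers of T cells summed to 31.0 to 80.2 CPM in backfat and 28.9 to 92.2 in liver.

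FOXP1, FOXP2 and FOXP4, which can form mixed dimers, were present in other proportions in each tissue. FOXP4 made up a median of 41.8% of the summed RPKM of FOXP1, FOXP2 and FOXP4 in backfat and 80.9% in liver, and FOXP1 45.8% (42.4% to 58.3%) and 10.2% (7.97% to 19.1%). The ranges of both genes were apart between the tissues. FOXP2 had a median of 10.9% in backfat and 8.54% in liver, with overlapping ranges. These shares describe the libraries and depend on the exon lengths used in the table.

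FOXJ1, the switch for motile cilia, was higher in liver at a low level. It (ENSSSCG00000017187, chr12:5307370-5312117, plus strand) had 0.0902, 0.229, 0.0505, 0.198 and 0.909 CPM in backfat and 1.15, 1.97, 1.06, 2.65 and 1.74 CPM in liver. The tissues did not overlap, and backfat 72 came close to the lowest liver library. The log2 fold change was -2.54 (SE 0.67, FDR 0.0062, edgeR), and -3.57 without backfat 72. The genes tied to FOXJ1 and to motile cilia did not follow it as a group. Of 15 tested, 6 were DEGs toward backfat and 2 toward liver, where all tested genes gave 11.1% and 11.2%, and the median log2 fold change was 0.90. TPPP3, a tubulin-binding protein that stromal cells also express, rose in backfat by 5.62 (SE 0.48, FDR 9.0e-07), with 81.6 ± 43.4 CPM there and 1.67 ± 0.909 in liver. RFX2, a partner of FOXJ1, rose in backfat by 3.75 (SE 0.67, FDR 0.00043), and RFX3 did not pass (0.28, FDR 0.27). DNAI1, an arm of axonemal dynein (-4.92, SE 0.50), and CFAP43 (-2.67, SE 0.42) were the DEGs higher in liver. The 9 markers of ciliated epithelium summed to 33.7 to 151 CPM in backfat, highest in backfat 72, and 3.77 to 6.51 CPM in liver, where MCIDAS was at 0. Most of the backfat sum was TPPP3. Of the 5 markers with a test 2 were DEGs toward backfat and 2 toward liver, with a median log2 fold change of -0.087. Their part in the FOXJ1 values was not tested.

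FOXJ2 and FOXJ3, which are widely expressed, differed from FOXJ1 and from each other. FOXJ2 had 29.8, 38.4, 30.0, 30.4 and 31.5 CPM in backfat and 16.7, 16.5, 17.4, 14.4 and 14.8 CPM in liver. All backfat libraries were above all liver libraries, and FOXJ2 rose in backfat by 1.00 (SE 0.14, FDR 5.1e-05, edgeR). FOXJ3 had 47.8 ± 4.44 CPM in backfat and 48.0 ± 7.64 in liver (SD, n = 5) and a log2 fold change of -0.01 (SE 0.15, FDR 0.97). FOXN3, a repressor linked to liver glucose use, went against FOXJ2, with 11.8, 9.20, 7.94, 7.10 and 7.27 CPM in backfat and 16.3, 20.5, 16.4, 17.3 and 18.1 CPM in liver. It was higher in every liver library, by 1.03 on the log2 scale (-1.03, SE 0.18, FDR 0.00033). FOXN2 had 14.5 ± 3.31 and 11.9 ± 3.77 CPM, and its log2 fold change of 0.28 (SE 0.24) did not pass (FDR 0.35).

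FOXK1 and FOXK2, repressors of autophagy genes, did not pass. FOXK1 had 30.5 ± 6.20 CPM in backfat and 25.2 ± 1.93 in liver (0.28, SE 0.16, FDR 0.16), and FOXK2 had 26.9 ± 2.56 and 22.6 ± 8.12 (0.25, SE 0.23, FDR 0.38). Per deposited exon length FOXK2 was the larger part of the pair, at a median of 62.1% of their RPKM in backfat and 61.6% in liver. In mean CPM FOXK1 was the higher of the pair in both tissues. The order therefore depends on the lengths used, which were 3678 bases for FOXK2 and 7208 for FOXK1. The RefSeq exon lengths are 7705 and 7823 bases. FOXH1, a partner of SMAD proteins, had 0.517 ± 0.147 CPM in backfat and 0.308 ± 0.221 in liver (0.76, SE 0.51, FDR 0.22).

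FOXM1, which drives genes of mitosis, had 2.46, 0.778, 0.555, 2.29 and 1.68 CPM in backfat and 0.798, 1.30, 0.871, 0.506 and 1.33 CPM in liver. The tissues overlapped, backfat itself ranging about as widely as both tissues together, and the log2 fold change of 0.69 (SE 0.46) did not pass (FDR 0.22). Of 19 tested FOXM1 targets 0 were DEGs in either direction (edgeR; DESeq2 also gave 0, and 4 had an unadjusted p under 0.05), where all tested genes gave 11.1% and 11.2%. By FDR alone TOP2A (1.02, SE 0.25, FDR 0.0044) and KIF20A (0.87, SE 0.31, FDR 0.029) were higher in backfat and BIRC5 (-0.96, SE 0.34, FDR 0.031) in liver. CCNB1, a mitotic cyclin, had 7.32 ± 2.99 CPM in backfat and 4.49 ± 0.764 in liver and did not pass (0.70, FDR 0.058), though it did without backfat 67 (0.87) or backfat 69 (0.82).

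**Figure D4:**
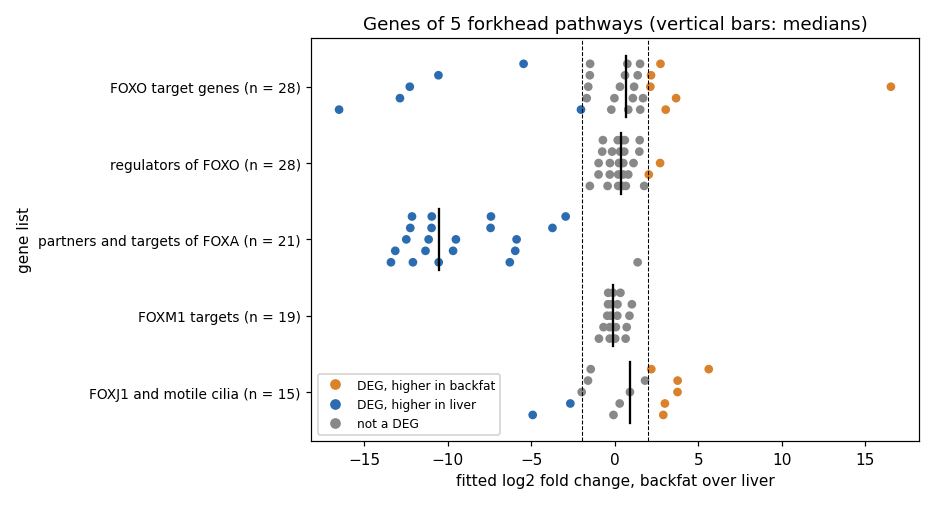
Fitted log2 fold change, backfat over liver, of the tested genes of 5 lists tied to forkhead factors, with a vertical bar at the median of each list and dashed lines at the threshold of 2. The 21 FOXA partners and targets lie on the liver side except CEBPA, the 28 FOXO targets spread to both sides, and no FOXM1 target passes a dashed line; values of genes without counts in a tissue depend on the fit's prior count.

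Genes under the filter held a few one-sided counts. FOXD3, a neural crest factor, had 60, 40, 61, 7 and 18 counts in backfat and 1, 0, 0, 0 and 2 in liver, so that the tissues did not overlap. In a fit without the filter its log2 fold change was 4.98 (SE 0.89, FDR 0.00032, edgeR). FOXI1 had 2 counts in backfat and 11 in liver in all, and a log2 fold change of -2.79 in the same fit (SE 1.04, FDR 0.046). FOXD2 had 52 and 39 counts, FOXD1 13 and 1, and FOXB1 2 and 6, and none of them passed in that fit, nor did FOXF2, FOXL1, FOXQ1 and FOXR2.

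The order of levels per length set the tissues apart at the top. In backfat the highest median RPKM values were those of FOXO4 (13.9, range 9.43 to 22.0), FOXO1 (12.6, 8.84 to 15.6), FOXO3 (10.2, 6.66 to 21.4), FOXK2 (8.69, 8.14 to 12.1), FOXS1 (7.52, 5.29 to 9.71) and FOXJ2 (6.81, 6.69 to 9.55). Each of these overlapped with its neighbour in the order. In liver they were FOXA3 (20.5, 13.8 to 55.8), FOXP4 (12, 7.74 to 15), FOXS1 (11.6, 5.34 to 41.9), FOXA2 (10.3, 4.65 to 14.7) and FOXO3 (6.30, 6.0 to 8.45), again with overlap between neighbours. These orders depend on the deposited exon lengths, which differ from those of RefSeq for some genes, FOXK2 among them. The FOXS1 values in both tissues are for its whole counted length of 5916 bases, without a separate value for the forkhead-coding exon. With RPKM scaled by library totals, a median above 1 was reached by 13 genes in backfat and 16 in liver. The 13 were among the 16, and the 3 genes added in liver were FOXA1, FOXA2 and FOXA3. This count depends on the scaling. With TMM the median of FOXP2 in backfat fell from 1.01 to 0.82, and that of FOXF1 in liver rose from 0.83 to 1.08. The RPKM of all forkhead genes together, scaled by library totals and not by TMM, was 73.0 to 120 in backfat and 76.8 to 144 in liver, which overlapped.

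**Figure D5:**
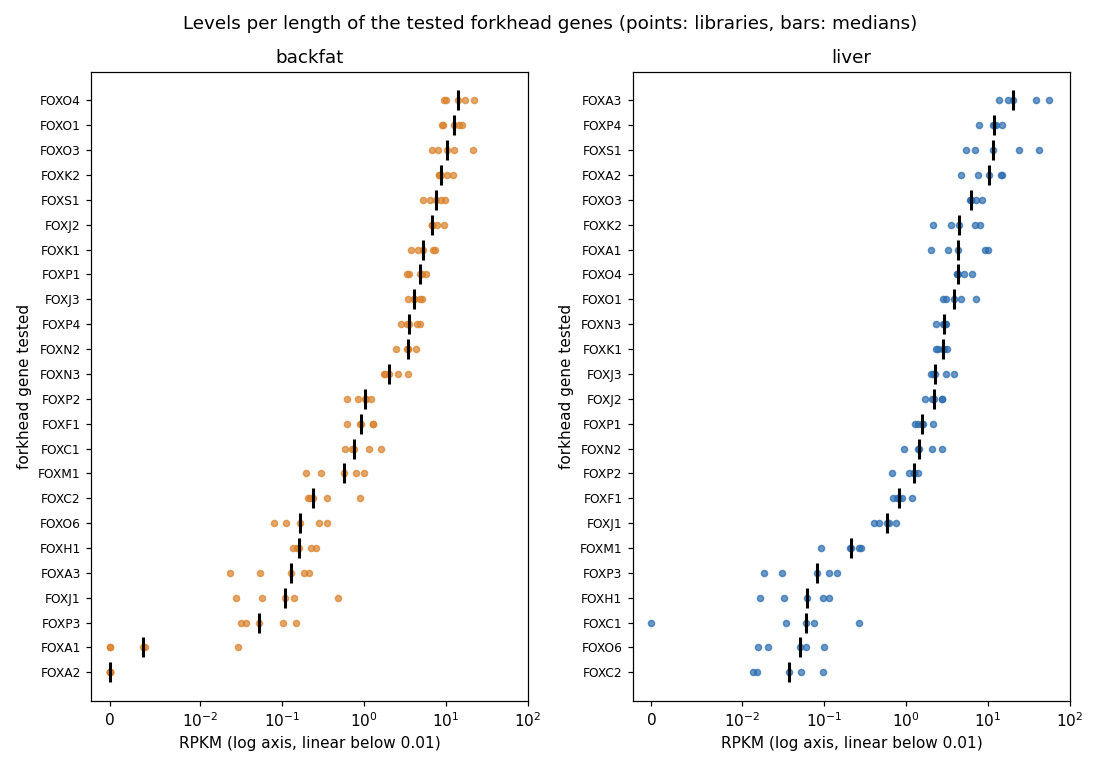
RPKM of the 24 tested forkhead genes in each library, ordered by the median within each tissue, on a log axis that is linear below 0.01. The 3 FOXO genes lead in backfat, at medians of 13.9, 12.6 and 10.2, and FOXA3 leads in liver at 20.5, while the FOXA genes lie among the lowest in backfat.

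Of the 167 tested genes within 200 kb of a forkhead gene 13.2% were DEGs, where all tested genes gave 22.3%, with 9 higher in backfat and 13 in liver. TTC6, beside FOXA1, was higher in liver as FOXA1 was (-5.47, SE 0.56). GMDS lies 8.5 kb from FOXC1 and was higher in liver (-2.58, SE 0.27), against the direction of FOXC1. Beside FOXA3, NOVA2 (2.82), GIPR (3.37), HIF3A (2.12) and EML2 (2.14) were higher in backfat, against the direction of FOXA3, although HIF3A was at 1.97 without backfat 67. The other neighbours higher in backfat were RPIA (2.35), RADIL (3.79), NRIP2 (2.88), ALDOC (4.20) and MDFI (2.59). Those higher in liver were VTN (-10.71), GJB1 (-11.23), SLC37A4 (-4.20), PGC (-3.94), SLC25A15 (-3.69), TMEM97 (-3.25), SLC39A4 (-2.40), SLC46A1 (-2.29), HYOU1 (-2.05), CACNA1F (-2.03) and SEBOX, which had 0 counts in backfat and was at least 724-fold higher in liver. The SEBOX bound covers counting error only, and its liver libraries ranged from 2.36 to 18.5 CPM. Without backfat 69 VTN was at -11.43 and GJB1 at -15.47. HYOU1 fell under the fold threshold without backfat 65 (-1.99), backfat 69 (-1.89), liver 65 (-1.99) or liver 69 (-1.74), and CACNA1F without backfat 69 (-1.87), backfat 71 (-1.96), liver 65 (-1.96) or liver 69 (-1.97).

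The 300 bases before the RefSeq start of each gene were searched for the forkhead-binding letters GTAAACA on both strands (TGTTTAC on the other strand). They were present in 5 of 41 forkhead windows, which is 12.2%, and in 2.87% of the windows of 19556 protein-coding genes. In the lists the share was 6.67% for FOXO targets, 6.45% for FOXO regulators and 8.33% for cilia genes. It was 4.55% for FOXA partners and targets and 0 for FOXM1 targets. MDM2, CFAP43 and TEKT1 of the lists also had a match and are not shown. The stretches of the 5 forkhead genes and of TXNIP and INSR from the lists are shown because forkhead factors are known to act on forkhead and insulin pathway genes, with the matched letters in capitals, in the direction of the gene. All lie upstream of the annotated gene start.
FOXO3 (chr1:74626467-74626527, plus strand): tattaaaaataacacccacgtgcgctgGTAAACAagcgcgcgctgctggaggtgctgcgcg
FOXO4 (chrX:57132329-57132389, plus strand): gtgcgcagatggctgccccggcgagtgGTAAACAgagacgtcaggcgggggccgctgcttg
FOXP1 (chr13:52974604-52974658, minus strand): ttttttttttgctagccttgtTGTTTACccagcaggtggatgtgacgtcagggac
FOXP2 (chr18:31890618-31890678, minus strand): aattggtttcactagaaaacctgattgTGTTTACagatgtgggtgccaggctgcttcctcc
FOXF1 (chr6:2598263-2598323, minus strand): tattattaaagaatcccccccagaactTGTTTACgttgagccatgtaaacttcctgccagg
TXNIP (chr4:99348425-99348485, plus strand): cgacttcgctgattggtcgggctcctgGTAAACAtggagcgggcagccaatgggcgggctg
INSR (chr2:71797172-71797208, plus strand): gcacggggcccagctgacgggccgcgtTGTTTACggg
The match began 193 bases before the start of FOXO4, 137 before TXNIP and 10 before INSR. Of the 5 forkhead genes with a match, FOXO4 and FOXP1 were higher in backfat and FOXP2 higher in liver by FDR, and FOXO3 and FOXF1 did not pass. A match is a description of the letters and not a binding site.

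The same windows were rich in CpG, the dinucleotide in which pig DNA is methylated. The forkhead windows held a median of 26 CpG sites and 66.7% G and C, where all windows held 13 and 56.7%. They ranged from 1 site in FOXR2 to 66 in FOXK1. The windows of FOXC1, of the 24 tested forkhead genes the one with the largest fold change toward backfat, and FOXA2, which had 0 counts there, differed widely and are shown with each CG in capitals.
FOXC1 (chr7:836788-837087, plus strand): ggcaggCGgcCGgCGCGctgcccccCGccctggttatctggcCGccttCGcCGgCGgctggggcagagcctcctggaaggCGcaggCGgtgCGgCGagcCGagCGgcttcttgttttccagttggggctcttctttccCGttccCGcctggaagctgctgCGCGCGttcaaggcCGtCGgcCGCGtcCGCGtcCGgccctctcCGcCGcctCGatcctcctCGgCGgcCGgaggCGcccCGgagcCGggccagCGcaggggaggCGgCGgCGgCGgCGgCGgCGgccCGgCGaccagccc
FOXA2 (chr17:30001705-30002004, minus strand): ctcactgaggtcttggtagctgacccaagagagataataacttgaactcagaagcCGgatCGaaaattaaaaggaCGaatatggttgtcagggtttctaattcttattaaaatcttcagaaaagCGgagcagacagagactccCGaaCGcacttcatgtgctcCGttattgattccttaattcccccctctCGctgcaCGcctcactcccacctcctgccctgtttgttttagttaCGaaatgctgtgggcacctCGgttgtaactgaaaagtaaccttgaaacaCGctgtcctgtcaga
FOXC1 held 46 CpG sites and FOXA2 12. The windows of the other forkhead DEGs did not divide by tissue. FOXC2, higher in backfat, held 10 sites. Those higher in liver held 28 (FOXA1), 23 (FOXA3), 34 (FOXJ1), 10 (FOXS1) and 7 (FOXP4). Methylation at these windows was not analysed here.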

How the data were processed

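RNA of backfat and liver of Nanchukmacdon boars was sequenced, with 5 libraries per tissue. The authors trimmed reads, aligned them with HISAT2 to the Sscrofa11.1 build and counted read pairs per gene without strand by featureCounts 2.0.1 with the Ensembl release 99 annotation; reads that matched several genes were not counted. The deposited values are raw counts that sum to between 43820042 and 61772737 in a library, so that a gene at 0 in a tissue is limited to 3 counts. Exon lengths are also deposited in the table. Genes were named through a table of Ensembl identifiers and symbols. The deposited whole genome bisulfite summaries were not used here.

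In R 4.3.3, edgeR 4.0.16 was run with filterByExpr, TMM, glmQLFit and glmQLFTest, tissue being the single term, and Benjamini-Hochberg adjustment over 16275 genes. Standard errors were derived from the fold change and its F statistic. CPM are TMM-normalized, and RPKM use the deposited lengths and library totals. The test was tried on simulated data for backfat against liver with 16275 genes, where 195 of 200 genes changed by 3 on the log2 scale were recovered, with 3 false calls. The changed genes were drawn only from genes above a limit on mean counts. Recovery of genes with low counts, or of changes near the fold threshold, was not measured. Alternatives were DESeq2 1.42.0, limma 3.58.1 (voom), glmTreat, other scalings and filters, and leaving out libraries. The forkhead genes and all gene lists were chosen with earlier results of these data known. Every tested member is named with values, and from each list the 2 DEGs with the largest change in each direction and preset lead genes; of these AKT1 and MKI67 had no row, and a few genes are not reported here. Other genes given in full lists (TRIM63, TXNIP, SESN1, APOC3, MTTP, PPARGC1A, IRS1, CEBPA, KIF20A and BIRC5) were named after their values were seen.

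Boar numbers come from the column names. The methods describe both tissues of the same 5 boars, so the numbers were taken to pair the libraries. The deviations of same-numbered libraries were weakly correlated, at 0.049 to 0.238. For boar 69, with the correlation of 0.049, the best match was number 72, and the other numbers matched best with themselves. The replicate numbers of the labels were not tied to boars. Nothing else marks a batch. Positions and sequences were taken from the RefSeq annotation of Sscrofa11.1 by symbol, whose gene models differ from Ensembl's for some genes.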

Additional observations from a re-analysis of the deposited data

Results flagged for a closer look

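In groups of 5 libraries, a library was flagged when its gap to the nearest of the others exceeded 0.71 of the range of the group (Dixon's test). This was so in 5 of 48 groups of the forkhead genes and in 15 of 92 groups of the other genes named. For normally distributed values chance flags about 1 group in 20. The CPM used here were not transformed, and groups at 0 throughout, such as FOXA2 in backfat, could not be flagged. The rate expected by chance is therefore not known for these groups. No explanation was weighed. Among the forkhead genes, backfat 69 was highest for FOXA1, at 0.135 CPM with 0.0180 in the next library, and for FOXC2, at 1.08 CPM with 0.446 in the next. Liver 71 was highest for FOXC1, at 0.663 CPM (next 0.163), backfat 72 for FOXJ1, at 0.909 CPM (next 0.229), and backfat 67 for FOXJ2, at 38.4 CPM (next 31.5).

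Among the other named genes, backfat 69 was the highest backfat library for 8, most of them genes of liver: TTR at 6.11 CPM (next 0.240), GATA4 at 1.48 (next 0.0686), TAT at 0.269 (next 0.0180), G6PC1 at 0.387 (next 0.0343), NR1H4 at 0.0336 (next 0), VTN at 17.4 (next 4.74), GJB1 at 0.925 (next 0.0180) and NRIP2 at 4.44 (next 2.32). Liver 67 was the highest liver library for INSR, at 79.8 CPM (next 32.9), and EML2, at 11.2 (next 6.98), and the lowest for SGK2, at 20.2 (next 50.8). The remaining values were PDK4 at 2036 CPM in backfat 67 (next 613), SLC39A4 at 4.22 in backfat 72 (next 1.93), TMEM97 at 75.2 in backfat 71 (next 47.5) and CACNA1F at 2.58 in liver 72, the lowest there (next 4.14).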

How the results depend on the processing

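The 2 forkhead DEGs higher in backfat became 0 with glmTreat and with at least 10 counts asked in every library, which removes low genes (15 forkhead genes tested). They became 1 without backfat 69, and 1 without backfat 69 and liver 67 together, a setting chosen after the data were seen; over the fits without a library they numbered 1 to 3. The 6 higher in liver became 3 with the library size alone as scaling, 3 with glmTreat and 2 with at least 10 counts. The 14 genes passing by FDR became 8 with at least 10 counts. They became 20 with the library size alone, 17 without the filter (34 tested) and 16 with DESeq2 (31 tested). The library size alone moved the median of all genes, on the log2 scale, from 0.00014 to 0.71 and the share of all DEGs higher in liver from 50.1% to 31.8%. It turned FOXF1 to 0.19 and FOXJ3 to 0.69, and left FOXJ1 at -1.82, FOXP4 at -1.64, FOXN3 at -0.29 and FOXP2 at -0.26. FOXN3 (FDR 0.27, edgeR) and FOXP2 (FDR 0.40) then no longer passed. FOXH1, FOXJ3, FOXK1, FOXK2, FOXM1, FOXN2, FOXO3 and FOXO6 then passed toward backfat, with FDR up to 0.028 (edgeR). Whether these genes passed therefore depended on the scaling. 2 genes near 0 also changed sign. FOXJ3 was at 0.00041 in limma-voom, 0.054 without the filter, 0.0021 with the replicate block, 0.025 without backfat 69 and liver 67, and between -0.096 and 0.10 without single libraries. FOXO3 was at -0.061 in limma-voom, -0.063 with the block, and between -0.26 and 0.18 without single libraries.

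With the boar as a replicate block, the forkhead DEGs were 2 in backfat and 5 in liver; the block took the calls of FOXS1 (-1.59), PDK4 (1.29) and HYOU1 (-1.94) and of no other named gene. In the lists, the FOXO target DEGs in backfat became 10 with library size alone and 3 with glmTreat, and those in liver 2 with at least 10 counts. The FOXO regulator DEGs in backfat became 1 with DESeq2-type size factors in edgeR, with glmTreat and with mitochondrial genes removed, 5 with library size alone, and 1 to 3 without single libraries. The FOXA partners and targets gave 1 DEG in backfat with library size alone and 5 in liver with at least 10 counts. The cilia DEGs in backfat became 3 with glmTreat and 2 with at least 10 counts, and those in liver 1 with library size alone, glmTreat or at least 10 counts, and 2 to 4 without single libraries. The cause of these moves was not tested beyond the smaller number of genes under the stricter filter. FOXC2 and FOXJ1 had low counts, at most 84 in any library, and FOXC1 had at most 21 in the liver libraries.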
